A study of Homo sapiens with 45 samples.

Results

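The response to azacytidine (azaC) of HAP1 cells labelled ZNF598 KO was followed in 6 of the 45 libraries of the series: the 3 libraries of ZNF598 KO cells kept for 4 h in 5 uM azaC and the 3 libraries of untreated ZNF598 KO cells. All 6 were taken by their labels, and no measured value entered the choice. HAP1 is an adherent human cell line that grows with a nearly haploid genome and descends from the leukaemia line KBM-7. The labels do not say how the ZNF598 gene was edited, nor whether the line is a single clone. The other lines of the series used below, all HAP1, are the AAVS1 line (taken as the reference), RNF25 KO, GCN2 KO, eS31 K113R and RNF25 GCN2 DKO, each with 3 untreated libraries and 3 libraries at the same azaC dose and time. ZNF598 KO cells have no group with halofuginone, the other drug of the series.

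ZNF598 is a ubiquitin ligase that recognises collided ribosomes and marks proteins of the small ribosomal subunit, which starts the removal of the stalled ribosomes. Collided ribosomes can also activate GCN2, a kinase that phosphorylates the initiation factor eIF2. General translation then falls while the transcription factor ATF4 is made, and ATF4 with its partners drives genes for amino acid supply, redox balance and, in prolonged stress, cell death. This programme is the integrated stress response. azaC is a cytidine analogue that cells build into RNA and DNA. The series title concerns azaC-induced mRNA damage, so the comparison asks which transcripts respond to azaC in cells labelled as lacking this collision sensor.

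In ZNF598 KO cells, azaC raised 13 of the 11078 genes tested and lowered none. These 13 make up 0.117% of the genes tested, and 0% were called lower. The 13 included ATF3, CEBPB and DDIT3, transcription factors of the integrated stress response, together with SESN2 and DDIT4, both inhibitors of the growth kinase mTORC1, and CHAC1, which degrades glutathione. The group was completed by the secreted glycoprotein STC2, the amino acid transporter SLC38A2, the pro-death BCL2 relative PMAIP1, the ER membrane protein HERPUD1, the immediate early factor JUN, the stress regulator TSC22D3 and the homeobox factor ISL2. Of the 13 genes, 12 belong to at least 1 of the 32 gene lists used here, and ISL2 belongs to none. A gene passed at a Benjamini-Hochberg adjusted p under 0.05 in edgeR's quasi-likelihood test, and changes are log2 fold changes, azaC against untreated, with their standard error (SE). An unadjusted p under 0.05 was reached by 204 genes in the upward direction (1.84%) and 127 in the downward one (1.15%), 2.99% of those tested. With the replicate number as a block in a fit to the 6 libraries alone, a fit chosen after the data were seen, 30 genes passed, 24 higher and 6 lower.

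**Figure D1:**
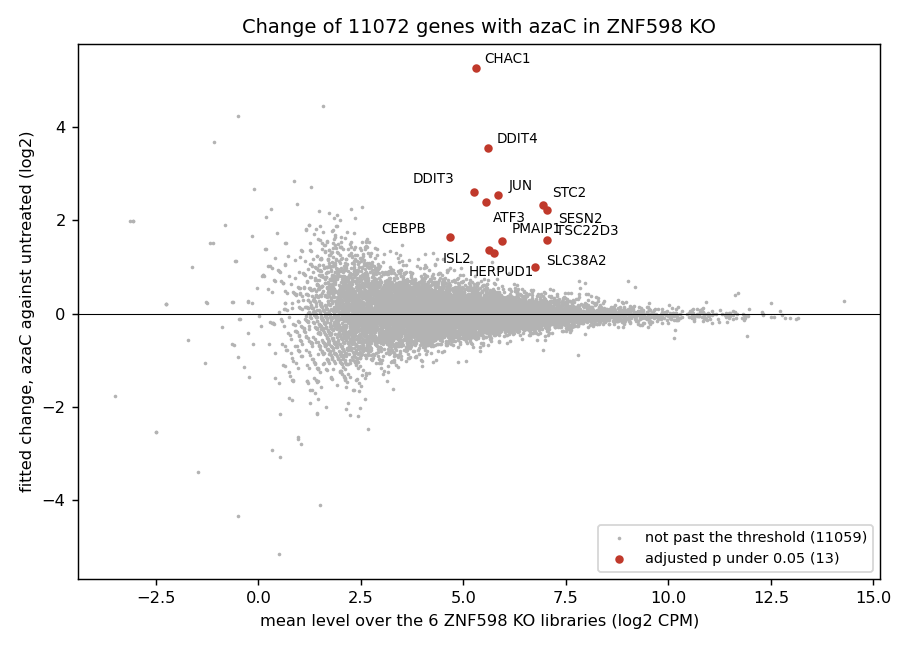
Fitted log2 change with azaC in ZNF598 KO (vertical axis) against the mean level over the 6 libraries (log2 CPM, horizontal axis), 1 point per gene, for 11072 genes; 6 tested genes with no count in these libraries are left out. The 13 red points are the genes past the threshold, all above 0, and the 11059 grey points did not pass.

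Total counts in the 6 libraries ran from 1391026 to 1931205, within the range of 1135498 to 2478875 over the series, and a tested gene had a median of 35 to 47 counts in each of the 6. Mitochondrial transcripts took 6.18 to 7.26% of the counts of these 6 libraries. Outside them, AAVS1 untreated replicate 2 and RNF25 KO azaC replicate 2 stood apart in the slope of expression on transcript GC content, at −0.51 and 0.39 against −0.11 to 0.08 in the ZNF598 KO libraries. Of 14 haematopoietic markers, 10 had no count in any of the 6 libraries and the other 4 had at most 1 count in a library. PTPRC, the pan-leukocyte marker, and SPI1, a myeloid factor, were among those at 0. The summed level of these markers was 0 to 1.04 CPM untreated and 0 to 2.16 CPM with azaC. The labels name the replicates as biological and say no more, so p-values measure the spread between these libraries, which may be technical. Bulk counts cannot tell fewer cells with a transcript from less of it in each cell.

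The transcript of ZNF598 itself (ENSG00000167962, GRCh38 chromosome 16, 1997654 to 2009823) was present in every library of the knockout. Its level was 41.9, 30.5 and 39.2 CPM in untreated replicates 1 to 3 and 47.5, 42.8 and 46.6 CPM with azaC, where CPM is a gene's count divided by its library's scaled total and put on 1 common base for all libraries. The change was 0.30 ± 0.21 (adjusted p = 1.0). In the AAVS1 line the means were 62.5 ± 10.7 CPM untreated and 89.8 ± 3.26 CPM with azaC (SD, n = 3). A transcript can outlast an edit that ends its protein, so these counts do not show the state of the protein. Opposite-strand exons cover 10.7% of the exon length of ZNF598, and whether the counting used strand is not given in the sources used here.

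The promoters of the called genes were read from RefSeq (GRCh38.p14), as windows of 250 bases before to 50 bases after a RefSeq start site, and all 13 genes matched. The first window listed was used for the 4 called genes with more than 1, ATF3 and DDIT3 among them, and their other windows were not searched. The letters TGATGNAA, the core of the composite element bound by C/EBP and ATF factors, were searched on both strands and lay in 3 of the 13 windows, against 3.62% of all 35116. The cyclic AMP response element TGACGTCA lay in 1 window, that of ISL2, against 1.85% of all. The AP-1 element TGANTCA lay in 1, that of DDIT3, against 7.71%, and the ER stress element, searched by its consensus letters, in 0 of 13, against 0.0769%. CCAAT alone lay in 10 of the 13 windows and in 34.6% of all. These shares are over every window listed, several for some genes, and not over the genes tested here. The called genes are thus set beside an unlike group. These are matches of letters in a short window, not measured sites. The stretches with the first 3 elements are shown because ATF, C/EBP and AP-1 factors, the families of ATF3, CEBPB, DDIT3 and JUN, are known to bind such letters, and capitals mark the match.
CHAC1, composite element, chr15:40953251-40953280, plus strand: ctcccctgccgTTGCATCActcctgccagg
HERPUD1, composite element, chr16:56931926-56932013, plus strand: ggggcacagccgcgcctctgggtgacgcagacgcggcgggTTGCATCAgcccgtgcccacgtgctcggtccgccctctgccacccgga
ATF3, composite element, chr1:212565176-212565263, plus strand: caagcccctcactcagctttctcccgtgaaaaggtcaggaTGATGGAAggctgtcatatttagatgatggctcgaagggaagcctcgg
ISL2, cyclic AMP response element, chr15:76336725-76336754, plus strand: ctagtgcgtgtTGACGTCAtgctgcgtgcg
DDIT3, AP-1 element, chr12:57520735-57520764, minus strand: gcgcgcgcaTGACTCAcccacctcctccgt
In CHAC1 and HERPUD1 the composite element reads TTGCATCA in the direction of the gene and its match is on the opposite strand, 209 and 176 bases before the RefSeq start site of the window. In ATF3 the match is on the strand of the gene, 191 bases before that site. The RefSeq start sites lie inside the GENCODE gene ranges printed in this text, by 509 bases in CHAC1, 94 in HERPUD1, 73 in ATF3, 49 in ISL2 and 1223 in DDIT3. Against the GENCODE ranges, the matches of HERPUD1 and ATF3 therefore lie 82 and 118 bases before the gene. Those of CHAC1 and ISL2 lie in annotated exons, 300 and 12 bases inside the gene, and that of DDIT3 lies 982 bases inside its gene, in no annotated exon.

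Transcription factors and regulators of the integrated stress response came first among the lists. Of 15 genes listed, 14 were tested, and 4 rose (DDIT3, ATF3, CEBPB and TSC22D3), none fell and 10 did not pass. The median change of the 14 was 1.15, against −0.00 over all genes tested, and 13 of the 14 lay above 0. The azaC and untreated libraries did not overlap, with azaC higher, in 10 of the 14, a pattern seen in 4.48% of all genes tested. All lists were chosen with earlier results of these data known, so their medians and counts are descriptions.

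DDIT3, also known as CHOP, a factor linked to cell death under lasting stress (ENSG00000175197, chromosome 12, 57516588 to 57521737), stood at 11.97, 10.9 and 9.54 CPM untreated and at 69.1, 76.6 and 50.9 CPM with azaC. Each azaC library lay more than 4 times above the highest untreated one. The change was 2.60 ± 0.32 (adjusted p = 5.78e-07). Opposite-strand exons of MARS and MBD6 cover 31.6% of the exon length of DDIT3, and same-strand exons of another gene 8.03%.
ATF3, a factor that feeds back on the response (ENSG00000162772, chromosome 1, 212565334 to 212620777), stood at 15.96, 17.2 and 12.2 CPM untreated and at 85.7, 109.7 and 40.9 CPM with azaC. The groups did not overlap, although azaC replicate 3 reached less than 0.5 of the level of either other azaC library. The change was 2.38 ± 0.41 (adjusted p = 0.000974).
CEBPB, a dimer partner of ATF4 (ENSG00000172216, chromosome 20, 50190734 to 50192689), stood at 16.6, 10.3 and 10.6 CPM untreated and at 36.7, 45.5 and 33.7 CPM with azaC. Its change was 1.64 ± 0.32 (adjusted p = 0.00738), with 11.8% of its exon length under the antisense gene CEBPB-AS1. The call was lost without untreated replicate 2 (adjusted p = 0.129), untreated replicate 3 (adjusted p = 0.123) or azaC replicate 2 (adjusted p = 0.107).
TSC22D3, a stress- and glucocorticoid-responsive regulator (ENSG00000157514, chromosome X, 107713221 to 107777342), stood at 65.2, 41.4 and 90.1 CPM untreated and at 218.1, 184.9 and 184.3 CPM with azaC. Its change was 1.57 ± 0.28 (adjusted p = 0.00145), and it did not pass without untreated replicate 2 (adjusted p = 0.0686).

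The transcript of ATF4, the central factor of the response, stood at 499.3, 362.2 and 531.9 CPM untreated and at 727.8, 557.4 and 792.6 CPM with azaC. The groups did not overlap, replicate 2 was the lowest in both, and the change of 0.58 ± 0.19 did not pass (adjusted p = 1.0). ATF4 passed in the fit to the 6 libraries alone with the replicate block, at the same change of 0.58. TRIB3, a pseudokinase induced by ATF4, had a value of 1.03 ± 0.35 (adjusted p = 1.0) and rested on 9.97 to 14.4 CPM untreated against 19.4 to 33.1 CPM with azaC. PPP1R15A, which directs the phosphatase that reverses eIF2 phosphorylation, had 1.30 ± 0.41 (adjusted p = 0.789), from 9.31 to 13.2 CPM untreated and from 22.2 to 30.4 CPM with azaC. The groups were apart for both TRIB3 and PPP1R15A, at levels where few counts stand behind each value. The stress regulator NUPR1 (2.25, adjusted p = 1.0) and the AP-1 family member JDP2 (1.27, adjusted p = 0.784) did not pass either.

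The mTORC1 inhibitors held 2 genes that rose among 10 tested, and the median of the list was 0.27. SESN2, a leucine-binding inhibitor of mTORC1 activation (ENSG00000130766, chromosome 1, 28259527 to 28282491), had the smallest p of all genes. Its level was 45.9, 48.3 and 46.6 CPM untreated and 246.9, 210.4 and 194.4 CPM with azaC. The untreated libraries were nearly equal and the groups lay far apart. The change was 2.21 ± 0.18 (adjusted p = 1.21e-11).
DDIT4, an activator of the mTORC1-restraining TSC complex (ENSG00000168209, chromosome 10, 72273920 to 72276036), stood at 5.32, 9.77 and 7.42 CPM untreated and at 87.8, 115.2 and 63.8 CPM with azaC. Its change was 3.54 ± 0.40 (adjusted p = 1.16e-07), the second largest of the 13. Exons of the antisense gene DDIT4-AS1 cover 41.2% of its exon length. The other sestrins did not pass, with SESN1 at 0.14 and SESN3 at 0.30 (adjusted p = 1.0 for each).

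Among genes of glutathione and cysteine supply, 1 of 11 tested rose and the median was 0.24. CHAC1 (ENSG00000128965, chromosome 15, 40952962 to 40956519) had the largest change of the 13. It had 2, 3 and 5 counts in untreated replicates 1 to 3, or 1.33, 1.72 and 2.65 CPM, and 130, 123 and 72 counts with azaC, or 93.6, 84.9 and 51.6 CPM. The change was 5.25 ± 0.60 (95% confidence interval 4.03 to 6.46, adjusted p = 1.16e-07), and the few untreated counts widen its interval.
SLC7A11, the cystine carrier of the xCT exchanger, stood at 38.6, 35.6 and 41.9 CPM untreated and at 74.1, 99.3 and 53.1 CPM with azaC, and its change of 0.96 ± 0.24 did not pass (adjusted p = 0.16); antisense exons cover 8.97% of its exon length. Its heavy chain SLC3A2 stood at 188.1, 193.8 and 197.6 CPM untreated and at 303.8, 312.5 and 296.2 CPM with azaC. The groups of SLC3A2 were far apart for their spread, and the change of 0.65 ± 0.15 fell short of the threshold (adjusted p = 0.080). SLC3A2 passed in DESeq2 and with the replicate block. SLC7A11 passed in DESeq2, in the blocked fit to the 6 libraries alone and without azaC replicate 3. CTH, which makes cysteine from cystathionine, had a value of 1.16 (adjusted p = 0.282).

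Of 17 amino acid transporters tested, 1 rose, and the median was 0.35. SLC38A2, a sodium-coupled carrier of small neutral amino acids (ENSG00000134294, chromosome 12, 46358189 to 46372867), stood at 85.1, 71.9 and 59.3 CPM untreated and at 153.3, 136.6 and 141.3 CPM with azaC. Its change was 1.00 ± 0.18 (adjusted p = 0.00192), and it did not pass without untreated replicate 3 (adjusted p = 0.0794). The azaC libraries lay above all untreated ones in 6 of the 17 transporters, against 4.48% of all genes tested, again as a description of a chosen list.
None of 11 genes of amino acid synthesis (median 0.22) and none of 20 cytosolic aminoacyl-tRNA synthetases (median 0.23) passed. Of the first, the mitochondrial carboxykinase PCK2 came nearest, with 23.3, 14.9 and 13.2 CPM untreated, 38.2, 31.7 and 30.8 CPM with azaC and a change of 0.98 ± 0.26 (adjusted p = 0.257). PSAT1, of serine synthesis, had 0.70 (adjusted p = 0.364) and passed only in the blocked fit to the 6 libraries alone (adjusted p = 0.000486), and the cysteinyl-tRNA synthetase gene, CARS1, had 0.53 (adjusted p = 1.0). ASNS, asparagine synthetase, had 0 to 4 counts in any library of the series and was not tested.

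Of 6 secreted stress factors tested, STC2 rose and 5 did not pass. STC2 (ENSG00000113739, chromosome 5, 173314713 to 173329503) stood at 31.9, 44.3 and 46.6 CPM untreated and at 200.8, 258.0 and 161.4 CPM with azaC, with no overlap. Its change was 2.33 ± 0.25 (adjusted p = 2.93e-08). The growth factor VEGFA had 0.93 (adjusted p = 1.0). The cytokine GDF15 gave no separation, with 0.665, 0.575 and 8.48 CPM untreated and 2.88, 4.14 and 7.89 CPM with azaC, a value of 0.52 ± 0.95 (adjusted p = 1.0) whose 95% interval ran from −1.38 to 2.43.

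**Figure D2:**
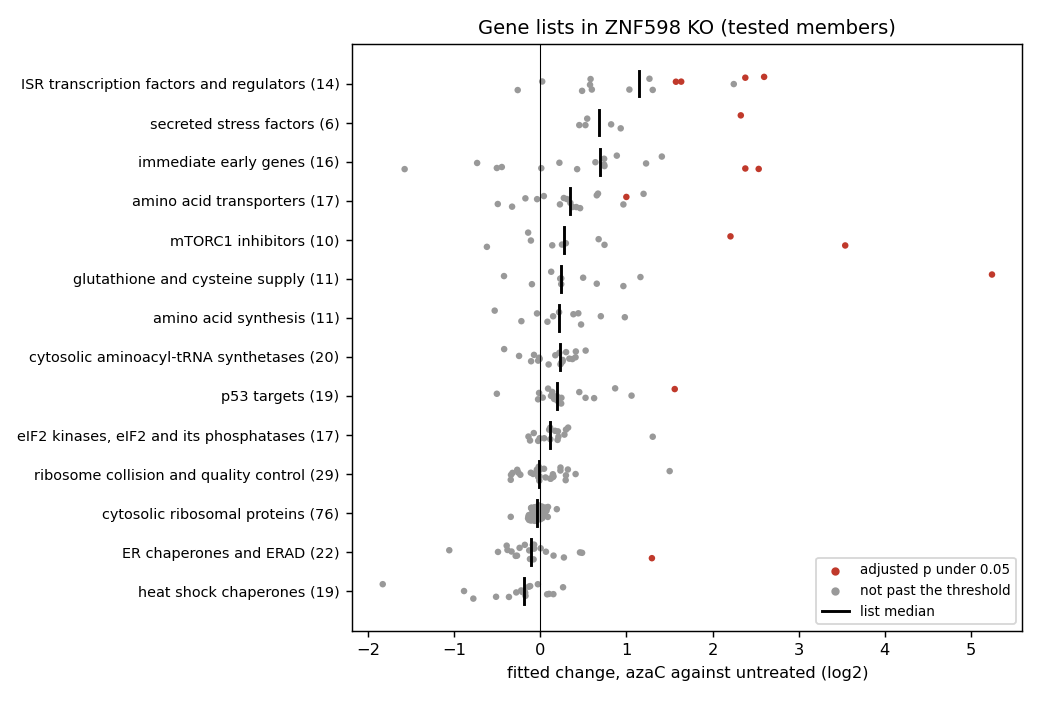
Fitted log2 change with azaC in ZNF598 KO for the tested members of 14 gene lists, 1 point per gene, with the number of tested members in parentheses and the list median as a black bar. Red points passed the threshold; the list of integrated stress response (ISR) factors has the highest median, 1.15, and the heat shock list the lowest of those drawn, −0.19.

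Of 16 immediate early genes tested, ATF3 and JUN rose, and the median was 0.69. JUN, a subunit of AP-1 (ENSG00000177606, chromosome 1, 58780788 to 58784327), was the least even of the 13 genes. It stood at 5.32, 19.5 and 24.9 CPM untreated and at 82.8, 145.6 and 67.4 CPM with azaC. The groups did not overlap, but untreated replicate 1 was far below the other 2 untreated libraries. The change was 2.54 ± 0.48 (adjusted p = 0.0040). The call was lost without untreated replicate 1 (adjusted p = 0.125) or azaC replicate 2 (adjusted p = 0.107). IER2, with 30.8% of its exon length under opposite-strand exons, had 0.43 ± 0.21 (adjusted p = 1.0). EGR1 had 1.23 and KLF10 had 0.89 (adjusted p = 1.0 for each).

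Among 19 tested p53 targets and 14 tested members of the BCL2 family, PMAIP1 alone rose, and the list medians were 0.19 and 0.08. Of the p53 targets, 16 lay above 0 and 3 below. PMAIP1, also called NOXA, which antagonises the survival protein MCL1 (ENSG00000141682, chromosome 18, 59899948 to 59904306), stood at 33.2, 31.6 and 29.1 CPM untreated and at 87.8, 109.7 and 79.6 CPM with azaC. Its change was 1.56 ± 0.26 (adjusted p = 0.000535). PMAIP1 is known as a target of both p53 and ATF4. GADD45A, a growth arrest gene, stood at 12.6, 5.75 and 19.6 CPM untreated and at 15.8, 30.4 and 33.7 CPM with azaC, so its groups overlapped at 1.06 ± 0.37 (adjusted p = 1.0).

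Of 22 ER chaperone and ER-associated degradation genes tested, HERPUD1 rose, while 15 of the 22 lay below 0 and the median was −0.11. HERPUD1 (ENSG00000051108, chromosome 16, 56932048 to 56944863) stood at 24.6, 33.3 and 34.4 CPM untreated and at 76.3, 79.3 and 72.4 CPM with azaC, a change of 1.30 ± 0.21 (adjusted p = 0.000375). HSPA5, the main ER chaperone (−0.29), DNAJB9 (−0.34), SDF2L1 (−0.24) and XBP1 (0.48) did not pass (adjusted p = 1.0 for each).
ISL2 (ENSG00000159556, chromosome 15, 76336724 to 76342476) stood at 30.6, 24.1 and 28.6 CPM untreated and at 65.5, 69.7 and 78.2 CPM with azaC, a change of 1.36 ± 0.27 (adjusted p = 0.00738). It did not pass without untreated replicate 2 (adjusted p = 0.129), untreated replicate 3 (adjusted p = 0.0618) or azaC replicate 3 (adjusted p = 0.0694). Opposite-strand exons cover 17.5% of its exon length.

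**Figure D3:**
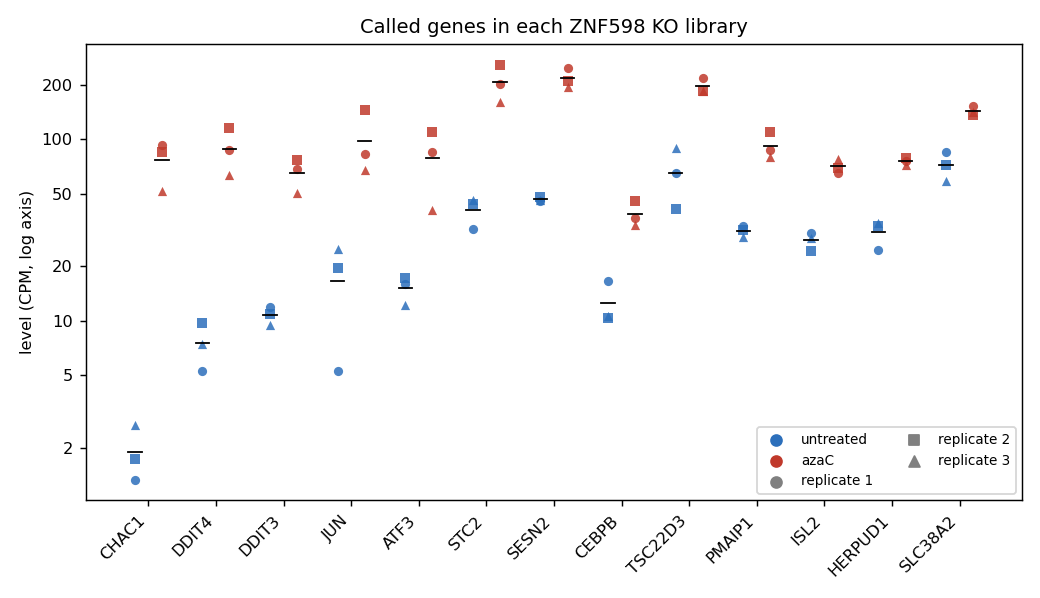
Level of the 13 called genes in each of the 6 ZNF598 KO libraries (CPM, log axis), blue for untreated and red for azaC, with the marker shape for the replicate number and a black bar at the mean of 3. In every gene the 3 red points lie above the 3 blue ones, and the triangle, replicate 3, is the lowest red point in 11 of the 13; heights of different genes are not comparable, since CPM does not allow for transcript length.

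Levels of the called genes were uneven among the azaC libraries. Replicate 3 was the lowest azaC library in 11 of the 13 called genes, against 34.0% of all genes tested, and replicate 2 was the highest in 8 of 13, against 35.6%. ISL2 went the other way and was highest in replicate 3. In the untreated libraries no replicate was the lowest in more than 6 of the 13. Replicate 3 of azaC had 1415585 counts, between 1391026 and 1931205, and 7.01% mitochondrial counts, so it did not stand apart in depth or mitochondrial share. Without it, ISL2 alone of the 13 no longer passed. Replicate 2 had more genes with a count, 16319 untreated and 15841 with azaC, against 14472 to 14964 in replicates 1 and 3. Ribosomal protein transcripts took 15.1% of its counts in each group, against 17.3 to 18.3% in replicates 1 and 3. Whether such library traits bear on the uneven levels was not tested.

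No list had a member that fell. Heat shock chaperones had the lowest median of the lists with at least 10 tested members, −0.19, with 15 of 19 below 0 and 0 past the threshold. HSPA8, the constitutive cytosolic chaperone, stood at 1591, 1264 and 1122 CPM untreated and at 999.2, 996.2 and 786.1 CPM with azaC. The groups did not overlap, as in 4.07% of all genes tested with azaC lower, and replicate 3 was the lowest of both. The value was −0.52 ± 0.24 (adjusted p = 1.0). In the blocked fit to the 6 libraries alone, HSPA8 (−0.51), HSPA1A (−0.88) and DNAJB1 (−0.75) were among the 6 genes that passed as lower. HSPA1A has a near-identical copy, HSPA1B, so the split of its reads is uncertain.
SOCS3, a feedback inhibitor of cytokine signalling, had the smallest p of the genes below 0. It had 29, 7 and 18 counts untreated, or 19.3, 4.02 and 9.54 CPM, and 2, 3 and 3 counts with azaC, or 1.44, 2.07 and 2.15 CPM. The groups did not overlap, and the value of −2.47 ± 0.65 did not pass (adjusted p = 0.243).

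Of 29 tested genes of ribosome collision and quality control, the machinery that ZNF598 works with, 0 passed. Their median was −0.01, and they ran from −0.34 to 1.50. The highest was the deubiquitinase OTUD1, at 1.84 CPM untreated and 5.22 CPM with azaC on average (adjusted p = 1.0). The collision sensor EDF1 (−0.02), the helicase ASCC3 that splits stalled ribosomes (0.04), the rescue factor PELO (−0.01), the collision-responsive kinase MAP3K20 (−0.32) and the translation repressor GIGYF2 (0.15) did not pass (adjusted p = 1.0 for each). EIF2AK4, the gene of GCN2, had −0.12, and GCN1, which GCN2 needs at collided ribosomes, had 0.11 (adjusted p = 1.0 for both). The 76 tested cytosolic ribosomal protein genes had a median of −0.04, and 0 passed. RNF25 itself had 0 to 7 counts in any library and was not tested.
Enzymes that take up, activate or are targeted by azaC, 27 tested, had a median of −0.04 with 0 past the threshold, among them the kinase UCK2 that activates azaC (0.13) and the DNA methyltransferase DNMT1 (−0.04). Of 18 germline genes that DNA methylation keeps silent, 1 had counts enough to test, DAZL, at −0.20 (adjusted p = 1.0). S phase (24 tested, median −0.04), G2 and mitosis (19, −0.06), ribosome biogenesis (29, 0.01), NRF2 targets (16, 0.15), cholesterol synthesis (21, −0.08), interferon-stimulated genes (11, −0.12), autophagy (15, 0.12), snoRNA hosts (15, 0.01) and mitochondrial mRNAs (13, 0.01) each had 0 past the threshold.

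The genes just outside the threshold began with SERPINF1, which encodes a secreted anti-angiogenic factor (adjusted p = 0.060). It had 1, 5 and 4 counts untreated and 15, 11 and 9 with azaC, or 0.665, 2.87 and 2.12 CPM against 10.8, 7.59 and 6.46 CPM, a value of 2.05 ± 0.47. With the replicate block in the fit of all libraries SERPINF1 passed, at 2.04 (adjusted p = 0.0438). Mean untreated levels in the other 5 lines were 24.8 to 45.5 CPM, so SERPINF1 was low in ZNF598 KO with and without azaC. In AAVS1 it stood at 45.5 CPM in both conditions (0.02). The difference between the 2 lines in the change was 2.03 ± 0.54, which did not pass over all genes (unadjusted p = 0.000501, adjusted p = 1.0). ULBP1, a ligand of the killer-cell receptor NKG2D, had 3, 2 and 5 counts untreated and 17, 15 and 9 with azaC, a value of 2.27 ± 0.54 (adjusted p = 0.085). The noncoding LINC00662 had 1.10 ± 0.28 (adjusted p = 0.16), and passed in DESeq2 and in the blocked fit to the 6 libraries alone. TXNIP, which restrains thioredoxin and glucose uptake, stood at 25.9, 43.7 and 29.1 CPM untreated and at 56.1, 86.2 and 70.3 CPM with azaC, a value of 1.10 ± 0.31 (adjusted p = 0.463). TXNIP passed with no filter on low counts and in the blocked fit to the 6 libraries alone.

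Set beside the AAVS1 line, the azaC response of ZNF598 KO differed past the threshold in 0 genes, 0% of those tested in either direction. At an unadjusted p under 0.05 the difference held 341 genes, 3.08% of those tested, and DESeq2 and limma-voom also called 0. The smallest adjusted p was 1.0. In AAVS1 13 genes passed, 0.117% of those tested, and 9 were shared, which is 69.2% of each list. ISL2, JUN, SLC38A2 and TSC22D3 passed in ZNF598 KO and did not pass in AAVS1, at adjusted p = 0.743, 0.99, 0.151 and 0.157 there. The test of the difference itself gave unadjusted p of 0.146 for ISL2, 0.0733 for JUN, 0.297 for SLC38A2 and 0.25 for TSC22D3, so they were not shown to respond differently in the 2 lines.
The fitted change was larger in ZNF598 KO for 11 of the 13 and smaller for ATF3 and CEBPB, but the 13 were chosen in ZNF598 KO, so that count is a description. SESN2 had the smallest unadjusted p of the 13. Its difference was 0.57 ± 0.25 (95% interval 0.06 to 1.07, unadjusted p = 0.0292, adjusted p = 1.0), with 56.9 ± 6.36 CPM untreated and 177.3 ± 21.0 CPM with azaC in AAVS1 (SD, n = 3). For CHAC1 the difference was 0.30 with a 95% interval from −1.85 to 2.45, which still contains differences of several-fold in either direction.
The levels of the 13 genes were also compared between ZNF598 KO and AAVS1, as a description. Of the 13 genes, 9 had a lower untreated mean in ZNF598 KO than in AAVS1, and for STC2, SESN2, ISL2 and HERPUD1 the untreated libraries of the 2 lines did not overlap, as in 5.57% of all genes tested. With azaC, 12 of the 13 means were higher in ZNF598 KO, with the libraries apart for JUN and TSC22D3 (7.03% of all genes tested). HERPUD1 was the exception. Its azaC libraries, at 76.0 ± 3.46 CPM, all lay below those of AAVS1, at 103.4 ± 2.89 CPM, as in 6.82% of all genes tested. Its fitted change was 1.30 in ZNF598 KO and 1.08 in AAVS1 (difference 0.22 ± 0.29, adjusted p = 1.0).

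**Figure D4:**
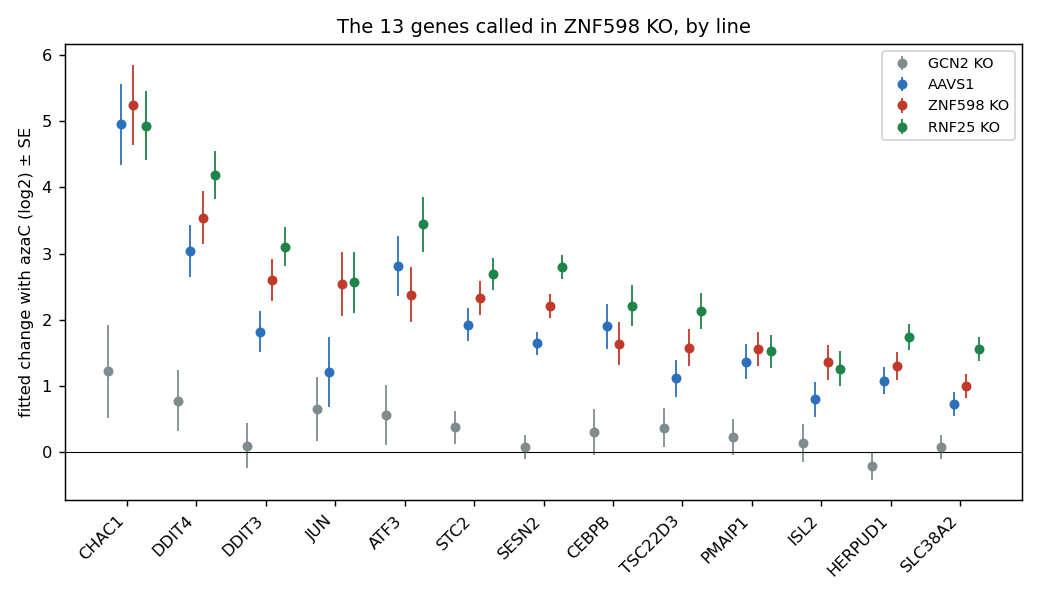
Fitted log2 change with azaC ± SE for the 13 genes called in ZNF598 KO, in 4 lines. Red points (ZNF598 KO) lie above blue (AAVS1) in 11 of the 13 and below green (RNF25 KO) in 10, with intervals that often overlap, and above grey (GCN2 KO) in all 13.

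Against RNF25 KO, the line of the other ubiquitin ligase, the difference also held 0 genes past the threshold, 0% in either direction. An unadjusted p under 0.05 was reached by 609 genes, 5.5% of those tested, and DESeq2 and limma-voom called 0. When every gene with a count was tested, 7 passed, 3 higher and 4 lower in ZNF598 KO. In RNF25 KO, 50 genes passed as higher with azaC, 0.451% of those tested. All 13 genes of ZNF598 KO were among them, 100% of the one list and 26% of the other. The change was smaller in ZNF598 KO for 10 of the 13 and larger for CHAC1, PMAIP1 and ISL2. The difference had an unadjusted p under 0.05 for SESN2, at −0.58 ± 0.25 (95% interval −1.08 to −0.08, unadjusted p = 0.023), and for SLC38A2, at −0.56 ± 0.26 (unadjusted p = 0.0342), each with an adjusted p of 0.903. PCK2, which did not pass in ZNF598 KO, had a smaller change in ZNF598 KO, with a 95% interval of the difference from −1.71 to −0.29 (unadjusted p = 0.00665, adjusted p = 0.903). In RNF25 KO with azaC, PCK2 stood at 83.1, 149.3 and 85.8 CPM. Replicate 2, the highest, is the library whose GC slope stood apart at 0.39.

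Against GCN2 KO, 4 genes passed with a larger change in ZNF598 KO, 0.0361% of the genes tested, and 0% with a smaller one. The 4 were SESN2, STC2, DDIT3 and HERPUD1. EIF2AK4, the transcript of GCN2, stood at 21.96 ± 2.41 CPM in untreated GCN2 KO, 44.0 ± 1.64 CPM in untreated AAVS1 and 40.7 ± 8.09 CPM in untreated ZNF598 KO (SD, n = 3). SESN2 stood at 68.4 ± 8.08 CPM untreated and 71.7 ± 20.6 CPM with azaC in GCN2 KO (SD, n = 3), a change of 0.07, and the difference was 2.13 ± 0.26 (adjusted p = 1.51e-06). It stayed past the threshold in all 20 alternatives run for it. The difference of STC2 was 1.95 ± 0.35 (adjusted p = 0.00749). For DDIT3 it was 2.50 ± 0.47 (adjusted p = 0.0111), and for HERPUD1 1.50 ± 0.30 (adjusted p = 0.0194). The calls of STC2, DDIT3 and HERPUD1 were lost in other fits. In limma-voom, adjusted p was 0.0667 for DDIT3 and 0.0648 for HERPUD1, and in the fit to the 12 libraries compared alone it was 0.085 for STC2 and 0.0842 for HERPUD1. Without GCN2 KO untreated replicate 1, adjusted p was 0.17 for STC2, 0.3 for DDIT3 and 0.17 for HERPUD1. Without ZNF598 KO azaC replicate 2 it was 0.053, 0.053 and 0.0714 for the same genes, and without GCN2 KO azaC replicate 3 it was 0.0558 for each. STC2 (0.0538) and HERPUD1 (0.187) were also lost without ZNF598 KO untreated replicate 1, and DDIT3 (0.0586) without untreated replicate 3. HERPUD1 was lost as well without ZNF598 KO azaC replicate 1 (0.056) or GCN2 KO azaC replicate 2 (0.0629).
All 13 called genes had a larger change in ZNF598 KO than in GCN2 KO, by 0.92 to 4.02. All 13 differences had an unadjusted p under 0.05, which 335 genes or 3.02% of those tested reached. The 13 were chosen by their change in ZNF598 KO, which is a part of each difference, so these counts are a description. For CHAC1 the difference was 4.02 ± 1.07 (adjusted p = 0.656), and for DDIT4 2.76 ± 0.64 (adjusted p = 0.176). DDIT4 passed with the replicate block, in DESeq2, with every gene tested and in the blocked fit to the compared libraries, and CHAC1 in the last 2 of these. Without GCN2 KO azaC replicate 2 both passed, and CHAC1 had 22.3 CPM in that library against 2.77 and 0 CPM in the other azaC libraries of GCN2 KO. In GCN2 KO itself 0 genes passed in either direction.
The remaining lines were not tested against ZNF598 KO. In eS31 K113R, where untreated replicates 2 and 3 carry another genotype in their titles, all 13 genes also passed, among 52 higher there (0.469%), and the change was larger than in ZNF598 KO for 12 of them, with CHAC1 smaller at 3.47 ± 0.81. In the libraries labelled RNF25 GCN2 DKO, whose untreated EIF2AK4 level was 39.6 ± 3.73 CPM, 0 genes passed, and SESN2 had 0.16 ± 0.18.

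**Figure D5:**
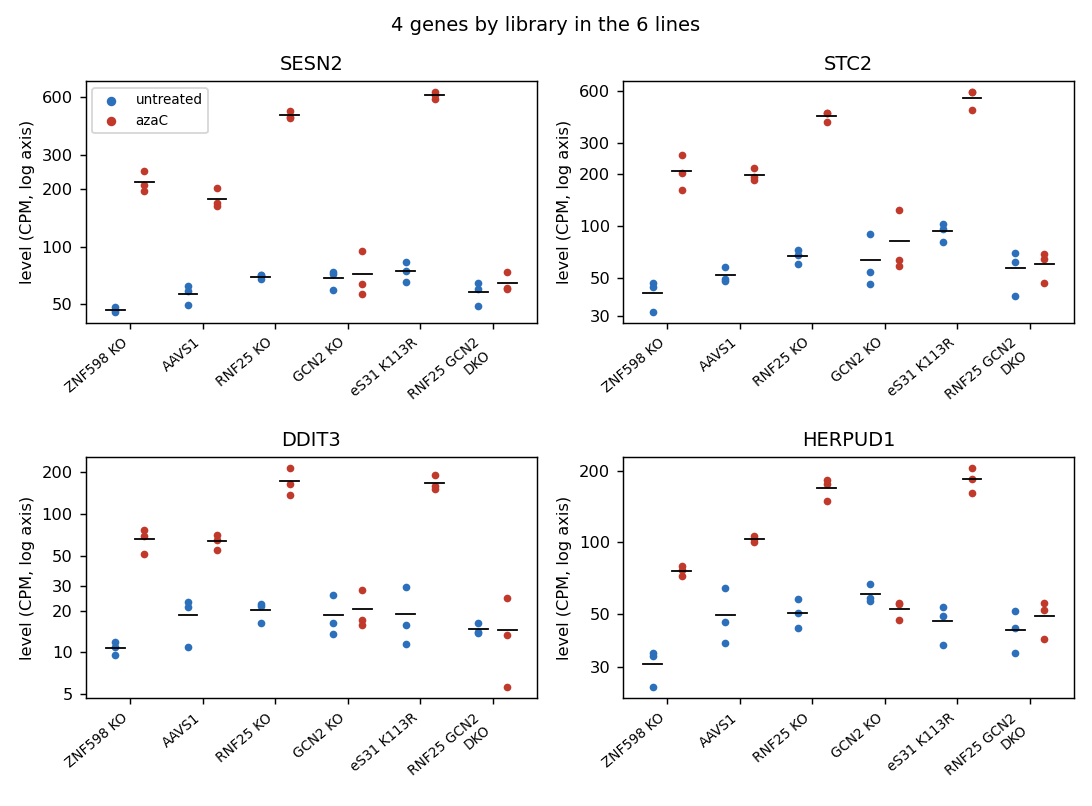
Level of SESN2, STC2, DDIT3 and HERPUD1 in each library of the 6 lines (CPM, log axes), blue for untreated and red for azaC, with a black bar at the mean of 3. In ZNF598 KO the 3 azaC points lie above the 3 untreated ones in all 4 panels, while in GCN2 KO and RNF25 GCN2 DKO the azaC and untreated means stay close.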

How the data were processed

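PolyA RNA was made into libraries with Lexogen's CORALL kit for mRNA, per the labels. The authors deposited raw read counts per gene, and the submitters' processing notes name STAR 2.7.10b, HTSeq 0.9.1 and the build GRCh38. The gene annotation, the strand setting and any collapsing by molecular identifier remain details not given in the sources used here. All 45 columns were used and 0 left out. Of 60676 genes, 11078 passed filterByExpr (minimum count 10). Counts were TMM-scaled and fitted with edgeR 4.0.16 (R 4.3.3) by quasi-likelihood, with a mean for each of 15 groups and 30 residual degrees of freedom. Tests were two-sided, with Benjamini-Hochberg adjustment over all genes. Entries with no symbol, 2862 in all, held 0.0195 to 0.0398% of each library. Untreated eS31 K113R replicates 2 and 3 carry another genotype in their titles and were placed by their column names. Pairs of libraries were compared within the untreated and azaC groups of ZNF598 KO, AAVS1, RNF25 KO and GCN2 KO. Chi-square per degree of freedom was at least 3.01, so none of these was a copy of another in its group. Other groups, and pairs across groups, were not checked. The steps were tested on simulated data.

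Deviations of same-numbered untreated and azaC libraries of ZNF598 KO correlated at 0.146, 0.353 and 0.217 across genes. Libraries with different numbers gave −0.247 to 0.0638, so the numbers were taken to pair these samples. The main fit left this pairing out, so its p-values and SE treat the libraries as unpaired. Same-numbered libraries correlated at 0.138, 0.327 and 0.282 in AAVS1 and at 0.0523, 0.0723 and 0.132 in GCN2 KO. In RNF25 KO they gave −0.0132, −0.0443 and 0.138, and different numbers gave −0.134 to 0.137, so pairing was not shown there. The other lines were not checked. The replicate block in the fit of all libraries uses the numbers in every group. Named are ZNF598, the genes past the threshold, the next genes by p up to 20, list members past the threshold, a set of stress genes, and genes past the threshold in a difference. Other list members named here were chosen after their values were seen, as were the genes added by the blocked fit to 6 libraries. Members, lists and names were chosen with earlier results of these data known. Gene positions and exon overlaps came from GENCODE, on GRCh38. DESeq2 1.42.0 and limma-voom 3.58.1 were alternatives, with other size factors, no filter, a replicate block, fewer libraries and each library left out.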

Additional observations from a re-analysis of the deposited data

Results flagged for a closer look

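In 4 genes the azaC response differed between ZNF598 KO and GCN2 KO by a test of the difference itself in edgeR. The log2 change was larger in ZNF598 KO by 2.13 for SESN2, 1.95 for STC2, 2.50 for DDIT3 and 1.50 for HERPUD1, with adjusted p of 1.51e-06, 0.00749, 0.0111 and 0.0194. In GCN2 KO, azaC replicate 2 was the highest library for STC2, at 122.9 CPM against 63.8 and 58.2 CPM, and for SESN2, at 95.1 CPM against 63.8 and 56.3 CPM.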

How the results depend on the processing

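The 13 genes that rose with azaC in ZNF598 KO were called in each of the 8 other settings that used all 6 libraries. The count of genes called was 13 with other size factors, in limma-voom and in the 6 libraries alone. It was also 13 without the 2 eS31 K113R libraries of doubtful label. DESeq2 called 16, all higher, and the fit with no filter on low counts called 16, of which 15 were higher and 1 lower. A replicate block gave 15. With a replicate block in the 6 libraries alone, a fit with 2 residual degrees of freedom chosen after seeing the data, it was 30. Leaving out 1 library gave 10 to 14, and JUN, CEBPB, TSC22D3, ISL2 or SLC38A2 were lost. The difference from AAVS1 held 0 genes in every setting. The difference from RNF25 KO held 0 except with no filter on low counts, which gave 7. The difference from GCN2 KO held 4 genes, 5 in DESeq2 and with a replicate block (DDIT4 added in both), 8 with no filter, 2 in limma-voom, 2 in the libraries compared alone, 8 in those with a replicate block, and 1 to 7 with 1 library left out (1 without GCN2 KO untreated replicate 1, GCN2 KO azaC replicate 3 or ZNF598 KO azaC replicate 2, 7 without GCN2 KO azaC replicate 2, and 2 without ZNF598 KO untreated replicate 1). None of the 29 genes followed across these settings in ZNF598 KO, and none of the 4 differences from GCN2 KO, changed direction; other values in the text were not followed. The median count of 35 to 47 per tested gene limits what can be called among weakly expressed genes, and the cause of these shifts was not tested.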
